A study of Homo sapiens with 12 samples.

Results

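The comparison described here asks whether BT474 cells labelled BRD8 knockout (KO) changed their messenger RNA under neratinib to the same extent, and in the same direction, as parental BT474 cells. BT474 is an established breast cancer line with oestrogen and progesterone receptors and an amplified ERBB2 (HER2) gene. The 12 bulk RNA sequencing libraries form 4 groups of 3: parental cells in DMSO, the solvent; parental cells after 200 nM neratinib for 4 h; KO-labelled cells in DMSO; and KO-labelled cells after the same dose and time of neratinib. The site of the BRD8 edit is missing from the labels, as is whether a clone or a pool was used. Separate cultures are not named either, so p-values rest on a spread between libraries that could be technical. For each gene the interaction is the difference between the genotypes in log2 of neratinib over DMSO (KO-labelled minus parental). A positive value means that the response was higher (a smaller fall or a larger rise) in KO-labelled cells. All named genes in the table were members: 27814, of which 16208 had enough counts to be tested, 6950 had counts but too few and 4656 had none.

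Neratinib binds irreversibly to the ErbB family receptor kinases, among them EGFR and HER2, and so stops the signals they send through the RAS-ERK and PI3K-AKT pathways. ERK drives transcription of cyclin D1, of ETS factors and of its own inhibitors (dual-specificity phosphatases and Sprouty proteins), and AKT keeps FOXO transcription factors out of the nucleus, so FOXO target genes are normally transcribed when AKT is off. BRD8, a protein with bromodomains, belongs to the EP400-TIP60 complex, which acetylates histones and exchanges the histone variant H2A.Z at promoters and enhancers.

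Total counts per library ranged from 32471198 to 44726160, and replicates of a group differed by a common biological coefficient of variation of 1.86%. BRD8 mRNA checks the genotype labels: it was at 64.9, 63.5 and 64.1 CPM (counts scaled to the library total) in the parental DMSO libraries and 67.4, 66.1 and 68.8 CPM in the KO-labelled DMSO libraries. The label was therefore not visible as a loss of BRD8 mRNA in DMSO, and these counts do not show whether protein was lost. After neratinib BRD8 was at 232, 242 and 233 CPM in parental and 153, 158 and 157 CPM in KO-labelled cells, an interaction of -0.66 ± 0.034 (SE; adjusted p = 3.00e-20, edgeR's quasi-likelihood test). Luminal markers such as KRT8, KRT18, GATA3 and FOXA1 were present in every group, and 15 of the 22 markers of blood, immune, endothelial and stromal cells were not tested for want of counts. The summed level of that marker list was 86.2 to 92.9 CPM in parental DMSO, 110.3 to 115 CPM in parental neratinib, 122 to 131 CPM in KO-labelled DMSO and 161 to 164 CPM in KO-labelled neratinib libraries, most of it COL1A1 and VWF, with PTPRC and CD3E at or near 0. The part of those markers in the results was not tested. In bulk RNA, fewer cells of a kind and less RNA per cell cannot be told apart.

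The typical neratinib response was smaller in KO-labelled cells. Of 16208 genes tested, 13077 (80.7%) changed in parental and 12519 (77.2%) in KO-labelled cells. Across genes the 2 sets of responses, which share no library, had a Pearson correlation of 0.857 (Spearman 0.856), a description over genes that are not independent. Their SD was 0.930 on the log2 scale in parental and 0.777 in KO-labelled cells, and the major axis of the cloud had a slope of 0.811. Of the 3372 genes that changed at least 2-fold in parental cells, 2824 (83.7%) had a response closer to 0 in KO-labelled cells. Choosing genes on 1 genotype favours that result, and the reverse choice is the fair counterpart: of the 2385 genes that changed at least 2-fold in KO-labelled cells, 1061 (44.5%) had a response closer to 0 in parental cells. Among genes that fell more than 8-fold in parental cells (27 genes), the median response was -3.39 in parental and -2.08 in KO-labelled cells. Among the 155 that rose more than 8-fold, it was 3.58 and 2.74.

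Nearly as many genes had an interaction as did not: 7468 of 16208 (46.1%), 3478 higher (21.5%) and 3990 lower (24.6%) in KO-labelled cells. The median absolute interaction was 0.21 over all genes tested. An interaction beyond 1.5-fold (glmTreat, adjusted p under 0.05) was called for 352 genes (2.17%), of which 179 were higher (1.1%) and 173 lower (1.07%). These 352 genes carry the description below, in 5 kinds. A response was damped (called in both genotypes in the same direction, and smaller in KO-labelled cells) in 187 genes, or 53.1%. It was reversed (called in both in opposite directions) in 70, or 19.9%. Another 44 responded in parental cells only, 30 responded more strongly in KO-labelled cells, and 21 responded in KO-labelled cells only. Over all 16208 genes, damped responses made up 41% and reversed responses 3.21%. The 2 sets of shares are not like for like. Those over all genes include genes with no interaction called, and choosing genes by a large difference favours opposite directions. The 91 damped genes with a positive interaction fell by a median of 1.64 on the log2 scale in parental cells and fell by 0.62 in KO-labelled cells, and the 96 with a negative interaction rose by a median of 2.19 and 0.85.

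**Figure D1:**
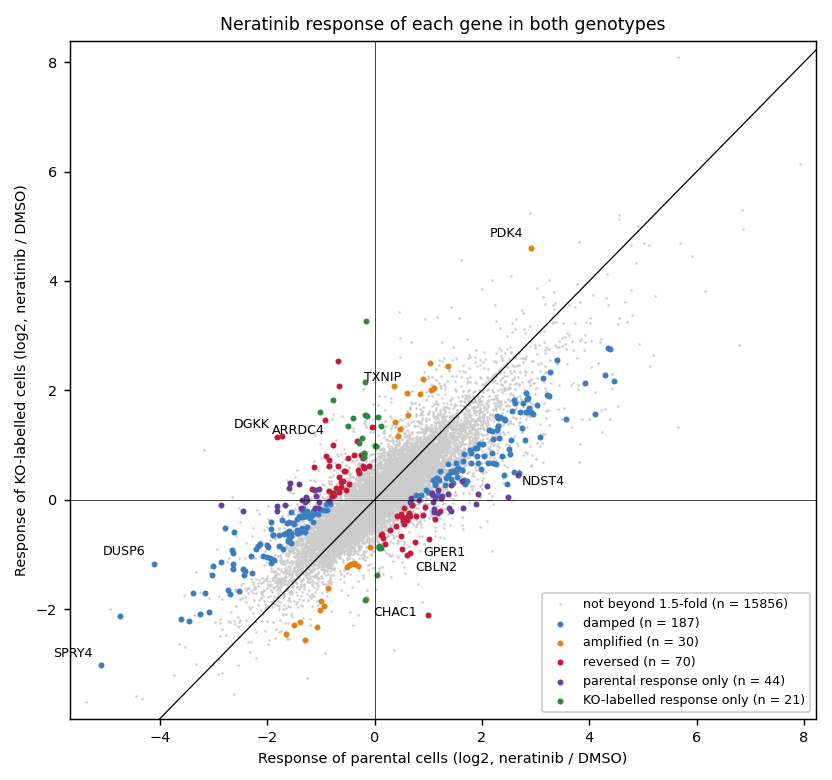
Neratinib response (log2, neratinib over DMSO) of each of the 16208 genes tested in parental cells (horizontal axis) and KO-labelled cells (vertical axis); the diagonal marks equal responses, grey points had no interaction beyond 1.5-fold and coloured points are the 352 that did, by kind. The 187 damped genes lie between the diagonal and the horizontal line at 0, and the 70 reversed genes lie above 0 on one axis and below 0 on the other.

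A difference on the log2 scale is a ratio of ratios, and it can change sign on a linear scale. Taken as differences in mean CPM instead, 34 of the 352 interactions (9.66%) had the opposite sign, 32 of them among the damped genes and 2 among the amplified, and 0 of the 70 reversed genes. The interaction can also be read as the gap between genotypes before and after the drug, which uses the same 12 libraries. A gap was called in 71.6% of genes in DMSO and in 71.6% after neratinib. Of the 352 genes, 138 had a genotype gap of opposite sign in DMSO and neratinib, 90 had a gap that narrowed, 47 had one that widened, 41 differed between genotypes after neratinib only and 36 in DMSO only. Narrowing was uneven by direction: it was the kind of 70 of the 173 genes with a lower response and of 20 of the 179 with a higher response.

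The response was closer to 0 in KO-labelled cells in 14 of 17 tested ERK readouts. Over all genes that share was 60.6%, and among genes with a parental response between -3 and -2 it was 89.9%, so 14 of 17 is not above the share of other genes with falls of that size. Of these 17 genes on the list of ERK outputs and feedback regulators, 10 had a higher and 2 a lower response in KO-labelled cells and 5 did not pass, against 21.5% higher and 24.6% lower over all genes. Calls also depend on the size of the response. Of the 149 genes with a parental response between -3 and -2, 83 had an interaction called in either direction. Beyond 1.5-fold were 22 of the 149 higher and 0 lower. The median response was -2.07 in parental and -1.22 in KO-labelled cells, and the median interaction was 0.47, against -0.023 over all genes. Beyond 1.5-fold were 7 members, all higher: DUSP6, SPRY4, EPHA2, ETV5, ETV4, SPRY2 and DUSP4. The other end of the list was SPRED3 (-0.67) and DUSP5 (-0.46), both inhibitors of the same pathway. The count of members lower beyond 1.5-fold was 0 by edgeR's glmTreat, also at an unadjusted p under 0.05, and 0 by DESeq2 and limma-voom.

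DUSP6 encodes the phosphatase that removes the activating phosphates from ERK, and it is transcribed in response to ERK activity (chromosome 12, 89347235 to 89352501). It was at 38.4, 35.8 and 35.5 CPM in parental DMSO and 2.23, 2.11 and 1.95 CPM in parental neratinib libraries. KO-labelled cells had 26.9, 27.9 and 29.5 CPM in DMSO and 12.9, 12.8 and 11.8 CPM in neratinib. No libraries overlapped between DMSO and neratinib, and the 3 KO-labelled neratinib libraries stood well above the parental ones although the DMSO level was lower. The responses were -4.12 and -1.17, an interaction of 2.95 ± 0.098 (SE; adjusted p = 4.41e-27, edgeR). Its reads cannot be separated from those of the POC1B-DUSP6 readthrough transcript.

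SPRY4, a Sprouty protein that inhibits receptor signalling to RAS, fell from 15.3, 13.8 and 14.9 CPM to 0.458, 0.332 and 0.468 CPM in parental cells. In KO-labelled cells it fell from 7.55, 7.23 and 7.88 CPM to 0.858, 0.993 and 0.894 CPM, so the drug left a level that was lower in DMSO but higher in neratinib than in parental cells (interaction 2.07 ± 0.24, SE). Its relative SPRY2 moved in opposite directions. It was at 2.01, 1.56 and 2.32 CPM in parental DMSO and 1.29, 1.18 and 1.19 CPM in parental neratinib, and at 1.24, 1.8 and 1.66 CPM and 2.46, 2.36 and 2.43 CPM in the KO-labelled libraries, a low level at which the call beyond 1.5-fold was lost in 5 of 19 alternatives, among them those without parental DMSO replicate 3 (1.19) and without KO-labelled DMSO replicate 1 (1.18). DUSP4, another phosphatase of MAP kinases, went from 368 ± 1.84 to 56.6 ± 1.53 CPM in parental and from 418 ± 4.75 to 127 ± 1.39 CPM in KO-labelled cells (mean ± SD, n = 3). The ETS transcription factors ETV4 and ETV5 had interactions of 1.33 and 1.47, and the ephrin receptor EPHA2 1.79.

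Cyclin D1 (CCND1), the cyclin that starts the G1 phase programme and an ERK output too, did not share the size of these differences. It fell from 395 ± 5.8 to 29.5 ± 1.13 CPM in parental and from 235 ± 3.74 to 25.3 ± 0.536 CPM in KO-labelled cells, an interaction of 0.53 ± 0.042 on responses of -3.74 and -3.21. EMP1, SPRED1, PHLDA1, IER3 and EPHA4 were the 5 members with no call. Among 20 immediate-early genes, which respond to growth factors within minutes, 8 had a higher and 6 a lower response (median interaction 0.12). Over all genes these shares were 21.5% and 24.6%. KLF2 had 1.03 and EGR1 0.95, while JUN had -0.75 and BTG2 -0.78. The call of EGR1 beyond 1.5-fold (adjusted p = 0.0471, edgeR's glmTreat) was lost in 12 of 20 alternatives, 7 of which left out a library (0.84 to 0.97): parental DMSO replicate 2 or 3, KO-labelled DMSO replicate 1, parental neratinib replicate 1 or 3, and KO-labelled neratinib replicate 1 or 2. The small parental fall of KLF2 (-0.19) was not called with library totals, with genes of at least 5 CPM alone or with a minimum coefficient of variation, and its reversal was lost there.

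**Figure D2:**
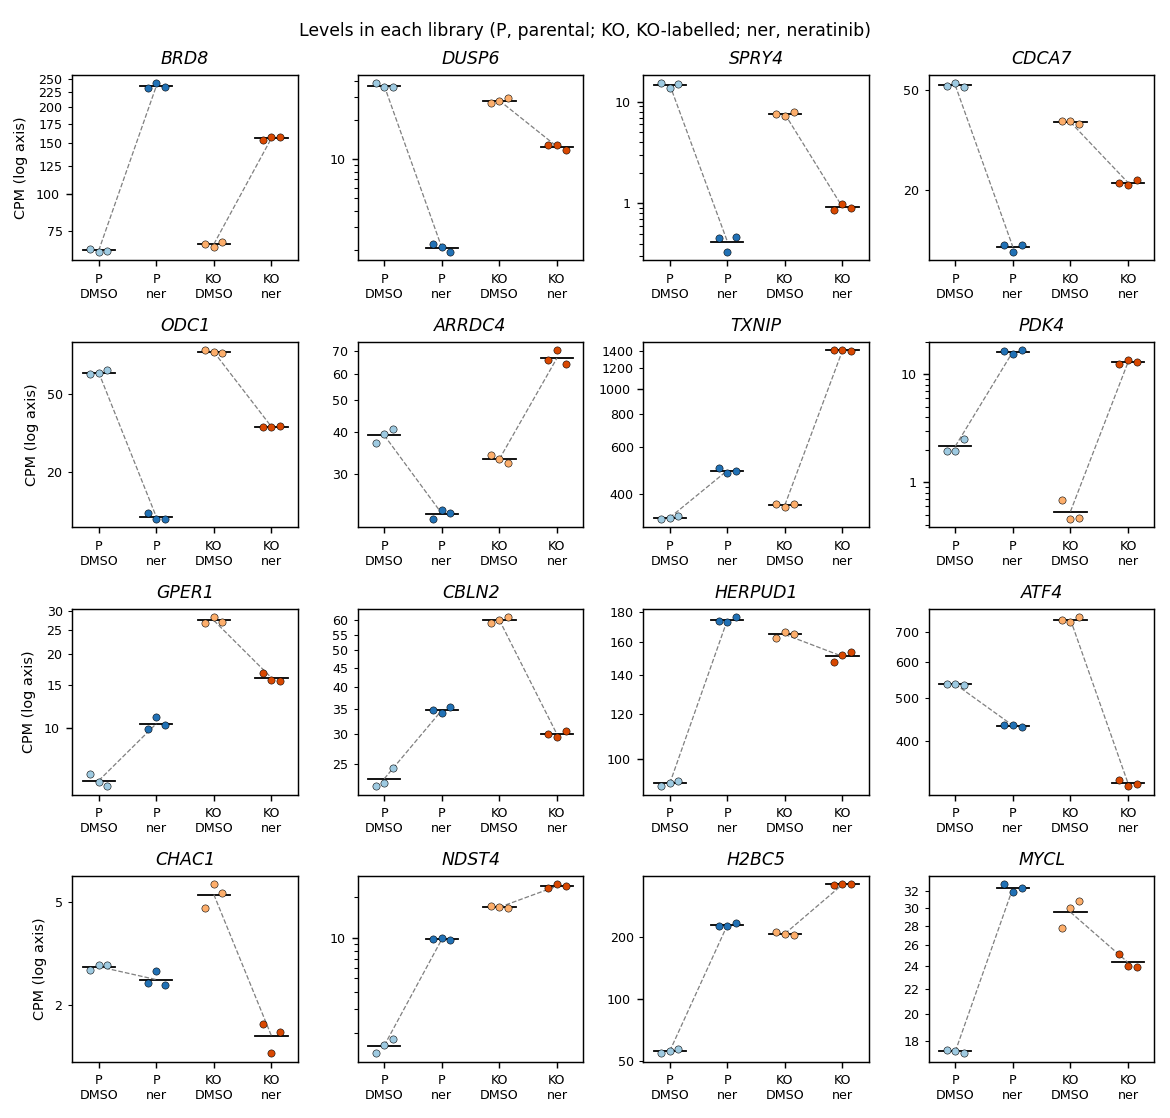
Level in CPM (log axis) of 16 genes in each of the 12 libraries; points are libraries, bars are means of 3, and dashed lines join DMSO to neratinib within a genotype. DUSP6 and SPRY4 fall in both genotypes and less in KO-labelled cells, ARRDC4 and GPER1 change in opposite directions, and NDST4 rises less in KO-labelled cells, from a higher start; H2BC5 was chosen after its values were seen.

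FOXO targets had a median response of 1.25 in KO-labelled cells and 1.0 in parental cells, and their interactions went both ways. Of 24 tested, 5 had a higher and 10 a lower response (21.5% and 24.6% over all genes). The median interaction was -0.085, against -0.023 over all genes. IRS2, an adaptor of the insulin receptor, rose by 4.91 and 5.0, and PIK3IP1, an inhibitor of PI3K, by 3.17 and 2.69. ERBB3, the HER2 partner receptor whose transcription rises when AKT is inhibited, rose from 311 ± 4.58 to 1018 ± 8.37 CPM in parental and from 356 ± 1.04 to 952 ± 11.1 CPM in KO-labelled cells (interaction -0.29). Only TXNIP and PDK4 were beyond 1.5-fold on this list, and both rose more in KO-labelled cells.

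PDK4 encodes a kinase that switches off pyruvate dehydrogenase and so spares glucose (chromosome 7, 95583499 to 95596516). It rose from 1.96, 1.96 and 2.53 CPM to 16.4, 15.5 and 16.8 CPM in parental cells and from 0.684, 0.455 and 0.46 CPM to 12.4, 13.4 and 13 CPM in KO-labelled cells. The KO-labelled cells thus started lower and ended near the parental neratinib level (interaction 1.68 ± 0.20, adjusted p = 2.07e-09, edgeR). In CPM the KO-labelled rise was the smaller one.

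TXNIP and its paralogue ARRDC4 are alpha-arrestins that lower glucose uptake, and both are textbook targets of MondoA and ChREBP, glucose-sensing transcription factors that bind E-box pairs. TXNIP was at 320.2, 322 and 329.8 CPM in parental DMSO, 499, 480.2 and 489 CPM in parental neratinib, 366, 355 and 365 CPM in KO-labelled DMSO and 1407, 1402 and 1399 CPM in KO-labelled neratinib libraries. The KO-labelled neratinib libraries stood far above all 9 others (interaction 1.36 ± 0.027, adjusted p = 1.00e-34, edgeR). ARRDC4 was at 37.1, 39.7 and 40.9 CPM in parental DMSO and 22, 23.5 and 23 CPM in parental neratinib. In KO-labelled cells it was at 34.3, 33.3 and 32.3 CPM and 65.8, 70.6 and 64.1 CPM. It fell in parental and rose in KO-labelled cells, with no overlap in either, and its interaction was 1.79 ± 0.057 (adjusted p = 7.74e-28, edgeR). In parental cells TXNIP rose (0.60) and ARRDC4 fell (-0.78). Their promoters are shown because both genes rose in KO-labelled cells, with positive interactions. Each runs from 250 bases before to 50 bases after the transcription start, from RefSeq on GRCh38.p14, 5′ to 3′ on the strand of the gene: TXNIP at chr1:145996530-145996829 on the minus strand and ARRDC4 at chr15:97960453-97960752 on the plus strand. Capitals mark the carbohydrate response element motif, a pair of imperfect E-boxes, 88 bases upstream in TXNIP, and CACGTG, an E-box, 210 bases upstream in ARRDC4. The marked motifs thus differ: in ARRDC4 it is a single E-box and not the pair.
TXNIP: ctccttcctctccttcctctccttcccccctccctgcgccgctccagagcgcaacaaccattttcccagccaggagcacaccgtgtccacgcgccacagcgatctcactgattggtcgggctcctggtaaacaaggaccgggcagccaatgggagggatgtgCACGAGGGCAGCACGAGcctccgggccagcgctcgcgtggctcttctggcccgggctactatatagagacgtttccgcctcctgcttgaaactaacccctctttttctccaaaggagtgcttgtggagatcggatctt
ARRDC4: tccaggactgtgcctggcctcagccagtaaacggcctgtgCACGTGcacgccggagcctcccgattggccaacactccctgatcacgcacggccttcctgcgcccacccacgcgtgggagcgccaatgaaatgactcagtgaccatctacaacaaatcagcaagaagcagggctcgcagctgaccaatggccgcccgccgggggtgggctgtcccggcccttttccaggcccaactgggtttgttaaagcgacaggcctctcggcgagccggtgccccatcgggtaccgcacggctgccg

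Both strands were searched in the 27305 promoters of the table, and the motifs and the genes shown were chosen after values were seen. The carbohydrate response element motif, whose letters leave many positions free, was found in 7.56% of all promoters and in 9.47% of the 12305 promoters of genes tested. Among genes beyond 1.5-fold it was found in 10.2% of the 128 promoters with a higher and 6.25% of the 144 with a lower response. The E-box was found in 7.43% of all promoters, 9.78% of those of genes tested, and 10.2% and 5.56% of those with a higher and a lower response. The shares for a higher response were thus close to those over genes tested. A match describes the letters of the window and is not a measured binding site.

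Opposite responses were called for 520 genes (3.21%): 287 (1.77%) rose in parental and fell in KO-labelled cells, and 233 (1.44%) did the reverse. Few were large. Both responses were at least 1.5-fold in 8 and 14 genes (0.0494% and 0.0864%), and at least 2-fold in 2 and 2 (0.0123% each). The count of 8 fell to 5 without parental DMSO replicate 1 or 2 and to 4 without parental neratinib replicate 3. The reversals ranked below were taken from 231 and 184 genes. These had no overlap between DMSO and neratinib libraries in either genotype and at least 1 CPM in a group. Y-linked genes, pseudogenes and symbols that name no established gene were left out. The share of all genes without overlap was not counted, so these numbers add no evidence for the reversals.

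Of those that rose in parental and fell in KO-labelled cells, the first by the size of the smaller response was GPER1, a membrane receptor that binds oestrogen (chromosome 7, 1087118 to 1093810). It was at 6.52, 6.07 and 5.84 CPM in parental DMSO and 9.97, 11.1 and 10.3 CPM in parental neratinib. KO-labelled cells had 26.9, 28.3 and 27.2 CPM in DMSO and 16.8, 15.8 and 15.5 CPM in neratinib. All KO-labelled libraries were above all parental ones, and neratinib brought the genotypes closer (interaction -1.54 ± 0.085, adjusted p = 2.67e-19, edgeR). GPER1 lies within the span of CHLSN, so reads of the 2 genes may not be separable.

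CBLN2, a secreted synapse organiser of the cerebellin family, was at 21.9, 22.4 and 24.5 CPM and 34.8, 34.1 and 35.4 CPM in parental DMSO and neratinib libraries. It was at 59, 60.2 and 61.1 CPM and 30.1, 29.4 and 30.6 CPM in the KO-labelled ones. The DMSO gap of more than 2-fold was gone after the drug, when the KO-labelled libraries were slightly the lower (interaction -1.60 ± 0.053, adjusted p = 3.27e-27, edgeR). PCDH19, a protocadherin of cell adhesion, was at 7.05, 7.09 and 7.1 CPM and 11.9, 11.3 and 10.3 CPM in parental cells. In KO-labelled cells it was at 7.93, 8.71 and 8.49 CPM and 4.29, 4.35 and 4.16 CPM, so the genotypes were close in DMSO and far apart in neratinib. TPRG1 and RTN2, a reticulon of the endoplasmic reticulum, had interactions of -1.73 and -1.40. MGAM, FBLN5 and DISP3 were reversed in all 20 alternatives and had smaller interactions (-1.15, -1.0 and -0.88), and DISP3 lost the call beyond 1.5-fold without any 1 library other than KO-labelled DMSO replicate 3 and parental neratinib replicates 2 and 3 (-0.90 to -0.76). DIO2 and ATP13A5, at low counts, lost the reversal in 5 and 12 of 19 alternatives, among them those without parental DMSO replicate 2 or 3 or parental neratinib replicate 3 for both genes, and for ATP13A5 also those without KO-labelled DMSO replicate 1 or 3 or parental neratinib replicate 1 (interactions of -1.84 to -1.51 for DIO2 and -0.98 to -0.80 for ATP13A5).

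Of those that fell in parental and rose in KO-labelled cells, DGKK came first. It encodes a diacylglycerol kinase and was at 0.629, 0.805 and 0.845 CPM in parental DMSO and 0.131, 0.363 and 0.182 CPM in parental neratinib. KO-labelled cells had 0.608, 0.841 and 0.429 CPM and 1.63, 1.51 and 1.17 CPM. The interaction was 2.97 ± 0.40 on 25 to 161 counts per group. NAV2, a neuron navigator protein that binds microtubules, was at 4.38, 4.27 and 4.62 CPM and 2.42, 2.36 and 2.29 CPM in parental and 1.39, 1.32 and 1.53 CPM and 2.75, 2.32 and 2.35 CPM in KO-labelled libraries, which brought both genotypes to the same level after the drug (interaction 1.71 ± 0.18). SCUBE2, a secreted protein of Hedgehog ligand release and a marker of oestrogen receptor-positive tumours, was at 12.9, 11.6 and 12.4 CPM and 6.94, 7.13 and 6.44 CPM in parental libraries. It was at 1.67, 1.43 and 1.56 CPM and 2.46, 2.41 and 2.29 CPM in the KO-labelled ones, a rise from a much lower start. The remaining 6 by rank were DUSP2, KRT81, PHETA2, SPRY2, KLHL29 and PAQR8. KRT81 fell by a small number of counts in parental cells, and that fall was no longer called without parental DMSO replicate 3 or parental neratinib replicate 1 or 3. The calls beyond 1.5-fold of DUSP2 (1.43 without parental DMSO replicate 3 and 1.47 without parental neratinib replicate 3) and PAQR8 (1.01 without KO-labelled DMSO replicate 3) were lost too. The libraries did not mark strand, so reads of several named genes may include those of genes annotated over them. Among these were SPRY4, CBLN2, TPRG1, NAV2, SCUBE2, MYCL, ODC1, HDAC9, DBP and UHRF1. So were SOX30, CACNA1C, KLHL29, DIO2, ATP13A5, MYCN, ESR1 and PGR.

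**Figure D3:**
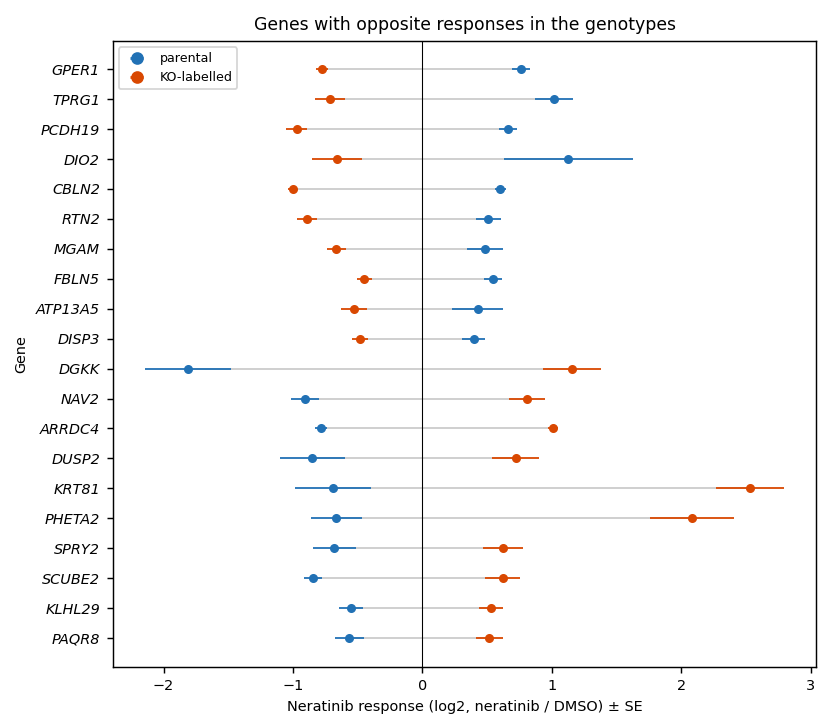
Neratinib response (log2, neratinib over DMSO; point ± approximate SE, derived from the F statistic) of the 20 reversed genes with the largest smaller response, 10 in each direction, in parental and KO-labelled cells. Points of each gene lie on opposite sides of 0; the parental SE bar of DIO2 is the widest.

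Among genes beyond 1.5-fold with at least 1 CPM in a group, the 10 largest positive interactions were those of DUSP6, SPRY4, DGKK and 7 low-count genes. KRT81, a hair keratin, had 3.23 ± 0.40 with 32 to 180 counts per group, and 44.6% of its 50-base windows also occur in genes such as KRT86, KRT83 and KRT87P, so its counts are uncertain. PHETA2, an endosomal trafficking protein, was at 1.53, 1.72 and 1.24 CPM and 1.09, 0.846 and 0.857 CPM in parental libraries. It was at 0.253, 0.091 and 0.245 CPM in KO-labelled DMSO and 0.799, 0.685 and 0.978 CPM in KO-labelled neratinib libraries. IVL (involucrin), a protein of the keratinocyte envelope, fell from 3.57, 2.98 and 3.04 CPM to 0.633, 0.242 and 0.442 CPM in parental cells. In KO-labelled cells it went from 4.77, 4.14 and 5.15 CPM to 2.84, 3.59 and 3.24 CPM, a response of -0.52. The cancer-testis antigen MAGEC1 fell by 4.75 and 2.12 on the log2 scale in parental and KO-labelled cells. ACTG2, smooth muscle actin, had 2.88, or 3.66 without KO-labelled DMSO replicate 3. The call of FLT4, a VEGF receptor, beyond 1.5-fold was lost without parental neratinib replicate 1 or KO-labelled neratinib replicate 2 (interaction 1.93 and 1.86).

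By the same limits, the 10 largest negative interactions belonged to genes that neratinib induced from a low level in parental cells and that were already higher in KO-labelled cells in DMSO. NDST4, a heparan sulphate sulphotransferase (chromosome 4, 114827763 to 115113620), had the most counts of these. It was at 1.41, 1.61 and 1.8 CPM in parental DMSO and 9.75, 9.88 and 9.53 CPM in parental neratinib. KO-labelled cells had 17, 16.8 and 16.4 CPM in DMSO, above every parental library, and 23.1, 24.6 and 23.9 CPM in neratinib. The interaction was -2.08 ± 0.11 (adjusted p = 5.23e-20, edgeR). UGT2B17 and UGT2B15, which conjugate androgens to glucuronic acid, also rose from a higher start in KO-labelled cells, but that start was below parental neratinib. As differences in mean CPM their interactions were positive (2.64 and 3.59), against -0.94 for NDST4. Those of SOX30 and HEPACAM2 were positive too (0.14 and 0.051), and those of the remaining genes were negative. UGT2B15 was at 0.478, 0.537 and 0.845 CPM and 12.3, 12.2 and 12.2 CPM in parental and 4.11, 3.93 and 3.8 CPM and 18.6, 19.9 and 18.9 CPM in KO-labelled libraries, and UGT2B17 had -2.30 ± 0.22. The pair shares 27.8% of its 50-base windows, so counts may pass between them.

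SOX30, a transcription factor of the male germ line, had the most negative value within these limits, -2.54 ± 0.46, from only 8 counts in parental DMSO. KCTD16, an auxiliary subunit of GABA-B receptors, had -2.17, HEPACAM2, an adhesion molecule, -2.08, and CACNA1C, a calcium channel subunit, -1.93. FAM78A rose from 1.06 ± 0.347 to 3.9 ± 0.463 CPM in parental cells and was at 3.91 ± 0.185 and 3.72 ± 0.512 CPM in KO-labelled cells (mean ± SD, n = 3). FCGR1A, an antibody receptor of myeloid cells, had -1.94, and 46.6% of its windows occur in copies of the gene.

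ATF4 is the transcription factor of the integrated stress response, which raises amino acid transport and synthesis when nutrients or protein folding fail. Its mRNA was at 536, 537 and 534 CPM in parental DMSO and 435, 435 and 429.8 CPM in parental neratinib libraries. In KO-labelled cells it was at 745, 737 and 754 CPM in DMSO, the highest group, and 328, 318 and 321 CPM in neratinib, the lowest. The interaction was -0.90 ± 0.026 (adjusted p = 2.58e-29, edgeR). Pseudogene copies hold 22.9% of the 50-base windows of ATF4. Of 29 tested genes on the list of ATF4 targets and amino acid genes, 21 had a lower and 3 a higher response in KO-labelled cells (24.6% and 21.5% over all genes; median interaction -0.26, against -0.023 over all genes), and of the called genes 15 were amplified and 5 damped.

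CHAC1, which degrades glutathione and is induced by ATF4, was at 2.72, 2.85 and 2.85 CPM and 2.42, 2.69 and 2.39 CPM in parental DMSO and neratinib libraries. It was at 4.74, 5.82 and 5.4 CPM and 1.69, 1.3 and 1.56 CPM in KO-labelled ones. No fall was called in parental cells, and in KO-labelled cells the response was -1.82 (interaction -1.65 ± 0.18, adjusted p = 1.44e-10, edgeR). DDIT3 (CHOP), a pro-apoptotic partner of ATF4, was at 23.6, 22.4 and 26.5 CPM and 28.8, 28.8 and 30.6 CPM in parental libraries. It was at 26.4, 25.7 and 25.6 CPM and 18.6, 16.6 and 18 CPM in KO-labelled libraries, a rise in parental and a fall in KO-labelled cells. STC2, a secreted glycoprotein, CEBPB, a transcription factor, and SLC7A11, the cystine transporter, had -0.78, -0.82 and -0.82. Among the members with smaller values, the transporter SLC7A5 had -0.26, asparagine synthetase (ASNS) -0.24 and PSAT1, of serine synthesis, -0.44.

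The 20 tested chaperones and quality control genes of the endoplasmic reticulum had 12 lower and 0 higher responses (24.6% and 21.5% over all genes), and 5 were reversed (3.21% over all genes). The count of higher responses was 0 by edgeR, also at an unadjusted p under 0.05, and 0 by DESeq2 and limma-voom. HERPUD1, which helps to clear misfolded proteins, was at 89.9, 91 and 91.7 CPM in parental DMSO and 174, 173 and 177 CPM in parental neratinib. KO-labelled cells had 163, 166 and 165 CPM and 148, 152 and 154 CPM. The parental level rose to just above the level at which the KO-labelled cells started and from which they fell slightly (interaction -1.07 ± 0.03, adjusted p = 2.58e-29, edgeR). The other members had smaller values, such as CALR at -0.43 and HSPA5 (BiP) at -0.19. The promoters of CHAC1 (chr15:40953221-40953520, plus strand) and HERPUD1 (chr16:56931892-56932191, plus strand) are shown because both genes turned down in KO-labelled cells. Capitals mark a match, on the minus strand, to TGATGNAA, the amino acid response element bound by ATF4 dimers, 209 and 176 bases upstream.
CHAC1: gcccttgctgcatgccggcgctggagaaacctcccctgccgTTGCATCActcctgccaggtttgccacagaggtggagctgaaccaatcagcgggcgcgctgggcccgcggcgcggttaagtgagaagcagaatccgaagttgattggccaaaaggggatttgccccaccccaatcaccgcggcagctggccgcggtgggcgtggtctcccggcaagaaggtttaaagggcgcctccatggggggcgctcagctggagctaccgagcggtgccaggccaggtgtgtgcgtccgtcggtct
HERPUD1: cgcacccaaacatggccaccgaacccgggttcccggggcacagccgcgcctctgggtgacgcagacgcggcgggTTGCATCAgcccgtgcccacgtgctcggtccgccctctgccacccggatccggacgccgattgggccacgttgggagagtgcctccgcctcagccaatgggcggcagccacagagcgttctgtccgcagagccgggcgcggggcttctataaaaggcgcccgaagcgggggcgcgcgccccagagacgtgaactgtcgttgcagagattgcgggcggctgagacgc

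The element was found in 5 of the 23 promoters matched for the list (AARS1, ASNS, CHAC1, SLC3A2 and SLC7A1), or 21.7%, and in 3.67% of all promoters in the table. The list was assembled from known targets, so the share says nothing of the interaction. Of those 5 genes, SLC3A2 had no interaction called (-0.031) and CHAC1 had the largest. Over genes tested the element was in 1.83% of promoters. Beyond 1.5-fold it was in 1 of 128 promoters with a higher response (0.781%) and 4 of 144 with a lower one (2.78%). On the list of endoplasmic reticulum chaperones it was in 1 of 19 promoters, that of HERPUD1.

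Replication genes had a smaller fall in KO-labelled cells by their median, -0.50 against -0.82. Of 42 tested genes of the G1/S programme, 26 had a higher and 3 a lower response (21.5% and 24.6% over all genes). In KO-labelled cells 34 (81%) were closer to 0, against 60.6% over all genes, and the median interaction was 0.26. Among all genes that fell 1.5-fold to 2-fold in parental cells, the share closer to 0 was 73.0%. Among those with a parental response between -2 and -1 it was 82.2%. CDCA7, an E2F and MYC target that recruits a chromatin remodeller, fell from 51.9, 53.3 and 51.2 CPM to 12.1, 11.4 and 12.1 CPM in parental cells. It fell from 37.6, 37.5 and 36.6 CPM to 21.3, 21 and 21.8 CPM in KO-labelled cells (interaction 1.33 ± 0.058, adjusted p = 8.12e-23, edgeR). UHRF1, the cofactor of maintenance DNA methylation, E2F1, the transcription factor of the programme, ORC1, an origin recognition subunit, and MCM6, a helicase subunit, were also beyond 1.5-fold (0.95, 0.94, 0.91 and 0.77). Of UHRF1, 25.7% of windows occur elsewhere. Among the exceptions were RRM2, the ribonucleotide reductase subunit (-0.37), and POLA1, a DNA polymerase subunit (-0.12). Mitotic genes differed little by their median interaction, -0.087. Of 38 tested, 20 had a lower and 2 a higher response (24.6% and 21.5% over all genes).

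Of 37 tested genes on the ribosome biogenesis list, which also holds other growth genes such as ODC1 and CAD, enzymes of polyamine and pyrimidine synthesis, 31 had a higher and 0 a lower response (21.5% and 24.6% over all genes). In KO-labelled cells 33 (89.2%) were closer to 0, against 60.6% over all genes and 73.0% over genes that fell 1.5-fold to 2-fold in parental cells. The median interaction of the list was 0.35. ODC1 and CAD were its only members beyond 1.5-fold. The median response was -0.59 in parental and -0.33 in KO-labelled libraries. The lower count was 0 by edgeR, also at an unadjusted p under 0.05, and 0 by DESeq2 and limma-voom. ODC1, the first enzyme of polyamine synthesis and a MYC target, was at 63.2, 64.2 and 66.3 CPM and 12.3, 11.5 and 11.5 CPM in parental libraries. It was at 84.1, 82 and 80.9 CPM and 33.9, 33.9 and 34.4 CPM in KO-labelled libraries (interaction 1.18 ± 0.053). CAD, the first enzyme of pyrimidine synthesis, was at 106, 107 and 107 CPM and 51.2, 52.7 and 54.4 CPM in parental libraries. It was at 53.6, 54.3 and 53.2 CPM in KO-labelled DMSO libraries, already at the parental neratinib level, and 46.1, 49.2 and 48.3 CPM after the drug (interaction 0.85 ± 0.042). POLR1A, the large subunit of RNA polymerase I, and NOP16, a nucleolar protein, had 0.65 and 0.69. The 63 cytosolic ribosomal protein genes did not share the difference: 45 had no call and the median interaction was -0.014. Of 21 snoRNA host genes, 10 had a higher and 0 a lower response by edgeR (lower also 0 at an unadjusted p under 0.05 and by DESeq2 and limma-voom), led by SNHG15 (1.02).

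MYC itself had no interaction called (-0.063 ± 0.18, adjusted p = 0.813, edgeR). It was at 9.34, 9.61 and 11.1 CPM and 9.05, 8.4 and 7.74 CPM in parental libraries and 1.42, 1.52 and 1.63 CPM and 1.21, 1.25 and 1.2 CPM in KO-labelled libraries. An approximate 95% interval of the interaction, from the SE (derived from the F statistic) and 8 residual degrees of freedom, ran from -0.49 to 0.36. KO-labelled cells had only 176 counts in DMSO and 137 in neratinib over 3 libraries. Its paralogues moved in opposite ways. MYCL was at 17.4, 17.3 and 17.2 CPM and 32.8, 31.9 and 32.3 CPM in parental libraries and 27.8, 29.9 and 30.8 CPM and 25.1, 24 and 23.9 CPM in KO-labelled ones, a reversal (-1.18 ± 0.06). MYCN fell from 8.43, 9.18 and 10.2 CPM to 1.13, 0.725 and 0.961 CPM in parental cells. In KO-labelled cells it fell from 8.52, 8.1 and 7.3 CPM to 1.98, 1.99 and 1.68 CPM (1.18 ± 0.19), and the call beyond 1.5-fold was lost without parental neratinib replicate 2 (1.04) or KO-labelled neratinib replicate 1 or 2 (1.15 and 1.13). Of 13 MYC network genes, 3 had a higher and 6 a lower response (21.5% and 24.6% over all genes). The median interaction was -0.14. The repressive partners of MAX, MXD4 (-0.69), MXI1 (-0.64), MNT (-0.48) and MXD3 (-0.41), had lower responses.

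Replication-dependent histone genes had median responses above 0 in both genotypes. Of 44, 39 (88.6%) were closer to 0 in KO-labelled cells (60.6% over all genes). Among all genes with a parental response between 1 and 2 that share was 82.0%. Histone mRNAs normally lack a poly(A) tail, and these libraries were made by poly(A) selection. Of 44 tested, 28 had a lower and 1 a higher response (24.6% and 21.5% over all genes), 12 were lower beyond 1.5-fold, and the median interaction was -0.73 on medians of 1.63 and 1.14. Of the 1591 genes with a parental response between 1 and 2, 678 had an interaction called in either direction. Beyond 1.5-fold were 60 of the 1591 lower and 4 higher. H2BC5, chosen here after its values were seen because it had many counts, was at 54.4, 55.9 and 56.9 CPM and 227, 227 and 233 CPM in parental libraries. It was at 212, 207 and 205 CPM and 361, 362 and 361 CPM in KO-labelled libraries (-1.25 ± 0.031). H2AC6 and H2BC21 had -1.01 and -0.93. H2AC16 had the largest value (-2.21 ± 0.45) from 15 to 166 counts per group, and the call beyond 1.5-fold was lost without parental DMSO replicate 1 or 3 (-1.92 and -1.82) and the value was -3.19 without replicate 2. Histone genes are near copies of each other, and H2AC18 and H2AC19 had the same value, -1.08, so single members are uncertain.

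Several non-coding RNAs, among them RNAs without a long poly(A) tail, had positive interactions. The mitochondrial ribosomal RNA RNR1 was at 1295 ± 111 CPM in parental DMSO, 1671 ± 26.8 in parental neratinib, 935 ± 16.5 in KO-labelled DMSO and 3941 ± 303 in KO-labelled neratinib libraries (mean ± SD, n = 3), an interaction of 1.71 ± 0.049. The small nuclear RNA RN7SK had 1.69 ± 0.26, RNR2 0.60 ± 0.038 and the nuclear RNA NEAT1 0.98 ± 0.028. RN7SK was uneven in parental DMSO (15.6, 12.1 and 36.7 CPM), with replicate 3 above the KO-labelled neratinib libraries (27.0, 26.8 and 36.4 CPM). RMRP had 0.47 and was not called (adjusted p = 0.273, edgeR). The called RNAs ran opposite in sign to the histone genes. Their part in the histone result and in the next was not tested. Of 13 mitochondrially encoded mRNAs 9 had a higher and 0 a lower response in KO-labelled cells by edgeR, with medians of 0.56 and 0.75. The lower count was also 0 at an unadjusted p under 0.05 and by the other tools. Limma-voom called 9 higher too, but DESeq2 called 1. Their summed share of counts went from 2.25% ± 0.158 to 3.45% ± 0.331 in parental and from 2.24% ± 0.225 to 3.90% ± 0.108 in KO-labelled cells (SD, n = 3). The 44 nuclear genes of the respiratory chain had 10 higher and 10 lower responses (21.5% and 24.6% over all genes) and a median interaction of 0.0026.

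Both hormone receptor genes, ESR1 and PGR, responded upward in each genotype. ESR1, the oestrogen receptor, rose from 30.9 ± 0.114 to 60.3 ± 0.0453 CPM in parental and from 28.6 ± 0.14 to 43.4 ± 0.912 CPM in KO-labelled cells (interaction -0.36 ± 0.046). PGR, the progesterone receptor and an oestrogen target, rose from 79.8 ± 0.67 to 193 ± 4.29 CPM and from 34.7 ± 0.292 to 75.6 ± 2.98 CPM (-0.15 ± 0.041). Of 25 oestrogen receptor targets 12 had a lower and 5 a higher response (24.6% and 21.5% over all genes). The median interaction was -0.095. CA12, a carbonic anhydrase, and RET, a receptor kinase, fell less in KO-labelled cells (0.89 and 0.78), and MYB, a transcription factor, and STC2 had -0.78 and -0.78. Of 21 luminal factors 8 had a lower and 6 a higher response; GATA3, FOXA1 and SPDEF, transcription factors of luminal identity, were at -0.38, -0.33 and -0.49. TFAP2B stood apart at 2.60, from 10 to 104 counts per group, and its call beyond 1.5-fold was lost in 11 of 19 alternatives, 8 of which left out a library (2.29 to 2.89): any of parental DMSO replicates 1 and 3, KO-labelled DMSO replicates 1 and 2, the 3 parental neratinib replicates and KO-labelled neratinib replicate 2.

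ERBB2, the drug target, was at 8176 ± 63.7 CPM in parental DMSO and 9138 ± 63.5 CPM in parental neratinib. It was at 8877 ± 117 CPM and 8433 ± 67 CPM in KO-labelled cells. The responses of 0.16 and -0.074 had opposite signs, and the KO-labelled fall was not called with library totals in place of TMM scaling or with only genes of at least 5 CPM. Of the 17 tested ErbB receptors, ligands and adaptors 3 had a higher and 5 a lower response (21.5% and 24.6% over all genes). ERRFI1 (MIG6), a feedback inhibitor of EGFR and HER2, had 0.91: it fell from 27.3 ± 0.458 to 16 ± 1.19 CPM in parental cells and was at 30.7 ± 0.856 and 33.5 ± 0.795 CPM in KO-labelled cells. AREG, an EGFR ligand, had 0.99. Among 23 other receptor tyrosine kinases 9 had a higher and 7 a lower response (median interaction 0.18); EPHB6 had 1.11 and EPHA7 -1.30. Of 23 genes of the insulin receptor and PI3K pathway 7 had a higher and 6 a lower response.

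The p21 gene CDKN1A, a CDK inhibitor and p53 target, went from 5.19 ± 0.376 to 8.65 ± 0.395 CPM in parental and from 17.4 ± 0.588 to 19.4 ± 0.348 CPM in KO-labelled cells (-0.58 ± 0.09). The order of the 4 groups was parental DMSO, parental neratinib, KO-labelled DMSO and KO-labelled neratinib. Of 28 p53 targets 13 had a lower and 5 a higher response (24.6% and 21.5% over all genes). The median interaction was -0.18. PLK2, a kinase of the centrosome cycle, was the main exception, at 121 ± 1.26 and 30.2 ± 1.9 CPM in parental and 117 ± 1.17 and 64.3 ± 2.08 CPM in KO-labelled cells (1.13 ± 0.043). BTG2, an antiproliferative gene, had -0.78. Of 16 BCL2 family genes 5 had a lower and 4 a higher response; BMF, a BH3-only killer protein, rose by 3.13 in parental and 2.23 in KO-labelled cells. CDKN2C, the CDK inhibitor p18, had -0.83 and lost the call beyond 1.5-fold without any of 6 libraries (-0.81 to -0.77): parental DMSO replicate 2 or 3, KO-labelled DMSO replicate 2, parental neratinib replicate 2 or 3 and KO-labelled neratinib replicate 3. Its list, the 17 tested G1 cyclins, CDKs and inhibitors, had 7 higher and 5 lower responses (median interaction 0.14).

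The complex that holds BRD8 was among the lists too. Of 20 EP400-TIP60 genes, 10 had a lower and 4 a higher response, against 24.6% and 21.5% over all genes (median interaction -0.10). By edgeR's glmTreat 0 were beyond 1.5-fold, with 1 at an unadjusted p under 0.05, and 0 by DESeq2 and limma-voom. BRD8 itself, EPC1 and MBTD1 had -0.66, -0.52 and -0.48, while TRRAP and EP400, the large scaffold and the ATPase, had 0.38 and 0.19. The 40 other chromatin regulators had 17 higher and 12 lower responses (median interaction 0.018). HDAC9, a class IIa histone deacetylase, was at 1.23, 0.993 and 1.56 CPM and 4.34, 3.99 and 4.13 CPM in parental libraries. It was at 9.86, 9.37 and 10 CPM and 12.8, 12.2 and 12.2 CPM in KO-labelled libraries (-1.37 ± 0.15). DNMT3A, a de novo DNA methyltransferase, fell by 1.56 and 0.61 on the log2 scale in the 2 genotypes.

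The other lists had counts on both sides. Over all genes 21.5% had a higher and 24.6% a lower response. Cholesterol and fatty acid synthesis had 16 higher and 10 lower of 33, with HMGCS1, which makes HMG-CoA, at 0.74 and FASN, fatty acid synthase, at 0.51. Hypoxia and glycolysis had 15 higher and 9 lower of 32, heat-shock and chaperonin genes 11 and 5 of 23, and DNA repair 12 and 5 of 33. Autophagy and lysosome genes had 2 higher and 18 lower of 33, with MAP1LC3B, the autophagosome marker LC3B, at -0.62. NRF2 and antioxidant genes had 5 higher and 10 lower of 21, and clock genes 3 and 8 of 18, with DBP, an output transcription factor, at -1.10. NOTCH, WNT, YAP and TGF-beta responders had 11 and 10 of 34. The remaining 4 were the thin ones: interferon-stimulated genes 3 and 6 of 28, antigen presentation 4 and 3 of 22, basal and mesenchymal markers 4 and 2 of 12 and NF-kappaB responders 1 and 1 of 12. Markers of blood, immune, endothelial and stromal cells had 1 and 2 of 7. The median interactions of these 13 lists lay between -0.29, for the markers of other cells, and 0.099, for hypoxia and glycolysis.

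**Figure D4:**
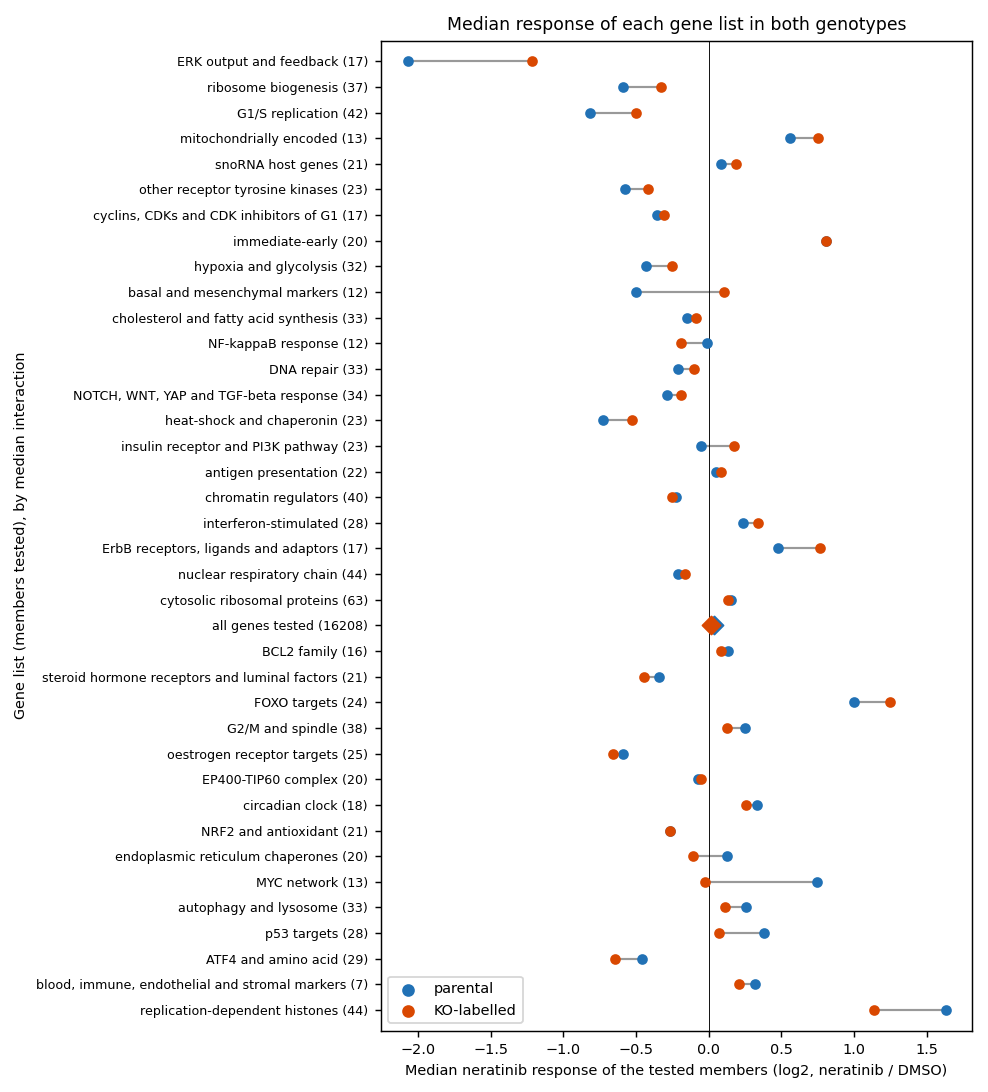
Median neratinib response (log2, neratinib over DMSO) of the tested members of each of the 37 gene lists and of all 16208 genes (diamonds) in parental and KO-labelled cells, with the lists ordered by median interaction. ERK outputs, ribosome biogenesis and G1/S replication lie at the top, with medians below 0 that are closer to 0 in KO-labelled cells, and histone genes lie at the bottom, with medians of 1.63 (parental) and 1.14 (KO-labelled).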

How the data were processed

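RNA sequencing counts per gene symbol were deposited by the authors as 1 table of whole numbers for the 12 libraries, without normalization. Libraries came from total RNA by a poly(A)-selecting kit that does not mark strand, and were read as single short reads, per the labels' protocols. Per the submitters' processing notes, FastQC 0.11.7, STAR 2.7.9 and edgeR 3.40.2 were used on GRCh38. How reads were counted, with which annotation and strand setting, is not given in the sources used here. Any read shared by overlapping or near-identical genes may therefore be divided between them, which the text names for some of the genes. Of 28395 lines, 581 had no gene symbol and were left out.

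Counts were kept by filterByExpr, scaled by TMM and fitted with 4 group means over all 12 libraries in edgeR 4.0.16 (R 4.3.3), with 8 residual degrees of freedom. The quasi-likelihood test gave each response and the interaction, and glmTreat tested the interaction beyond 1.5-fold, adjusted by Benjamini-Hochberg across the 16208 genes and called at 0.05. CPM values are scaled by TMM, and errors are SE of the log2 value or SD of the CPM. Each SE is approximate: it is the absolute log2 value over the square root of the F statistic of its quasi-likelihood test. The fit was tested on simulated data. Alternatives were other scalings, other filters, DESeq2 1.42.0, limma 3.58.1 (voom), a minimum coefficient of variation and leaving out each library. Near copies were counted as shared 50-base windows of transcripts, and gene positions and promoters are RefSeq's on GRCh38.p14, where 16153 of 16208 symbols matched.

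The genes described are 9 fixed genes (CDKN1A, MYC, DUSP6, CCND1, BRD8, ERBB2, ERBB3, PGR and ESR1); the 10 most positive and 10 most negative interactions beyond 1.5-fold at 1 CPM or more in a group; 10 reversed genes a direction by the larger of their smaller response, with no overlap between DMSO and neratinib libraries; and 2 called members a list with the largest interaction. Others named were chosen after their values were seen, and a few genes under these rules are not reported here. The genes and lists were chosen with earlier results of these data known.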

Additional observations from a re-analysis of the deposited data

Results flagged for a closer look

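The neratinib response differed between parental and KO-labelled cells by a direct test of the difference, the interaction term in edgeR's quasi-likelihood fit, for many genes. It was higher in KO-labelled cells in 3478 genes and lower in 3990, and beyond 1.5-fold in 179 and 173. The responses were called in opposite directions for 287 genes that rose in parental cells and 233 that fell there, and both were at least 1.5-fold in 8 and 14. Among genes beyond 1.5-fold with at least 1 CPM in a group, the 5 most positive interactions were KRT81 at 3.23, DGKK at 2.97, DUSP6 at 2.95, ACTG2 at 2.88 and PHETA2 at 2.75 on the log2 scale. The 5 most negative within these limits were SOX30 at -2.54, UGT2B17 at -2.30, H2AC16 at -2.21, KCTD16 at -2.17 and HEPACAM2 at -2.08. Groups of 3 were too small to look for a single library far from the others.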

How the results depend on the processing

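With a coefficient of variation of at least 0.1 and a likelihood ratio test, 2 choices changed together, 692 higher and 741 lower interactions were called, all 1433 of them among the 7468. Beyond 1.5-fold were 66 and 59, of which 122 of 125 were among the 352. The reversed genes then numbered 38 and 37, and the 125 held 59 damped, 5 amplified, 19 reversed and 28 that responded in parental cells only. Under that setting the interactions of ESR1, PGR, ERBB2 and ERBB3 were no longer called (adjusted p = 0.199, 0.704, 0.467 and 0.314). The calls beyond 1.5-fold of MGAM, FBLN5, DISP3, SPRY2, KLHL29, PAQR8, KLF2, EGR1, ERRFI1, CA12, MYB, UHRF1, CDKN2C, MYCN, CAD, ATF4, HERPUD1, HMGCS1, BTG2, BMF, DNMT3A, DBP and SNHG15 were lost. DESeq2 called 112 and 85 beyond 1.5-fold, with 190 genes reversed that rose in parental cells, 3 of them at least 1.5-fold both ways. Its 197 held 119 damped, 15 amplified, 39 reversed, 17 parental only and 7 KO only. With limma-voom 19 were amplified, 23 parental only and 11 KO only. With genes of at least 5 CPM alone, reversals at least 1.5-fold both ways numbered 3 and 2, interactions of at least 2-fold 56 and 45, and 16 and 9 responded in 1 genotype only; without a filter the first of these was 4. Scaling moved the median interaction by at most 0.024, and the higher and lower calls to 3836 and 3552 with DESeq2's size factors or 3028 and 4394 with library totals.

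Leaving out 1 library gave 3267 to 3657 higher and 3365 to 3941 lower calls, 167 to 187 and 138 to 169 beyond 1.5-fold, 215 to 285 and 219 to 245 reversals, 4 to 10 and 11 to 15 of them at least 1.5-fold both ways, and 228 to 253 and 258 to 297 interactions of at least 2-fold. Among genes beyond 1.5-fold, damped numbered 168 to 187, amplified 24 to 30, reversed 62 to 72, parental only 32 to 51 and KO only 15 to 22. Of 2-fold responders, 82.2% to 84.7% of parental and 44.4% to 47.8% of KO-labelled ones were closer to 0 in the other genotype. The uncalled interaction of MYC ranged from -0.12 to 0.023, the latter without parental neratinib replicate 1 (adjusted p = 0.940), and the called one of AXL from -3.80 to 0.058, the latter without KO-labelled DMSO replicate 3 (adjusted p = 0.932). With a replicate block added, 3430 and 3919 were called and 174 and 165 beyond 1.5-fold. The replicate numbers did not pair the samples: correlations of same-numbered deviations were -0.047 to 0.040, and 4 of 12 libraries correlated best with their own number.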
